A study of Homo sapiens with 8 samples.

Results

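Arrays from serum-treated cells were compared between an HCT116 line expressing a short hairpin RNA against CDK8 (shCDK8) and an HCT116 line expressing a control hairpin (shControl). HCT116 is an established human colorectal cancer line. The comparison used the 4 arrays whose titles place them at 30 min of serum, 2 from each line, out of 8 arrays in all. All cells of the study had first been starved of serum for 40 h. The 4 compared samples then received medium with 10% fetal bovine serum for 30 min, and the other 4 samples, 2 of each line, were harvested starved and serve here as the reference for how much of the line difference was already there. The question addressed is which genes differed between the lines once the serum response had begun. The labels name no second hairpin, and they do not say whether a line was a clone or a pool, so the loss of CDK8 and any other difference between the lines cannot be told apart. Nothing in the labels tells if the 2 arrays of a group stem from independent cultures. The p-values therefore reflect how far duplicate arrays lay apart, and that spread may be technical only.

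CDK8 is the kinase of the Mediator kinase module, a detachable assembly of CDK8 or its paralog CDK19 with cyclin C, MED12 and MED13. Core Mediator relays signals from DNA-bound transcription factors to RNA polymerase II, and the module can repress or assist that relay depending on the gene. Serum growth factors act through RAS and ERK on pre-bound transcription factors and switch on the immediate-early genes within minutes, with no need for new protein, so a sample taken soon after serum catches the peak of this wave. In colorectal cancer CDK8 is also known as a coactivator of β-catenin.

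Levels are deposited log2 values for 1 probe set per gene, changes are shCDK8 minus shControl on that scale with the standard error (SE) of the model, and n is 2 arrays per group throughout. Genes with an adjusted p below 0.05 (limma, Benjamini-Hochberg over 18417 genes) are called higher or lower. Array medians lay between 7.07 and 7.11, duplicates correlated across genes with r between 0.997 and 0.998, and the number of arrays limits the precision. Of 14 measured colonic epithelial markers 5 lay above the 75th percentile of all genes, among them the keratins KRT8 and KRT18, and 2 lay below the 25th percentile. None of 11 fibroblast or 11 blood and endothelial markers lay above the 75th percentile, and 5 and 8 of these lay below the 25th. Between the lines after serum, KRT8 (0.42), KRT18 (0.56) and CDH1 (0.26) were higher and KRT19 (-0.34) was lower in shCDK8 cells. These were the called members of the colonic list, 28.6% against 14.2% of all genes. The median change of that list was -0.05, with 6 members above 0 and 8 below. Of the other cell types' markers, SPARC, a matrix glycoprotein (1.28 ± 0.10, adjusted p = 2.82e-05), and LYZ, lysozyme (0.29 ± 0.08, adjusted p = 0.0484), were called. The mean level of the 11 fibroblast markers was 5.26 and 5.29 in the shControl serum arrays and 5.36 and 5.38 in the shCDK8 serum arrays. SPARC was the only one of them called. The median change of the list was -0.03, with 5 members above 0 and 6 below. The part of the shift of the mean in the results was not tested. The LYZ and CDH1 calls ended when any of the 4 serum arrays was left out (adjusted p from 0.0979 to 0.232 and from 0.0691 to 0.109), LYZ also without either starved shCDK8 array (0.0600), and the KRT19 call ended without shControl array 2 (0.0518).

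The probe set that reports CDK8 showed the knockdown after serum. It read 9.22 and 9.19 in the serum-treated shControl arrays and 7.04 and 7.06 in the shCDK8 arrays, 4.45-fold lower (log2 -2.15 ± 0.07, adjusted p = 0.000171 over the 13837 probe sets without exactly 1 annotated gene). The annotation pairs this probe set with both CDK8 and ADRA1B, an adrenergic receptor, and the value belongs to the probe set. The rest of the kinase module did not pass the test: 0 of 6 measured members were called, against 14.2% of all genes. CDK19 read 8.35 and 8.36 in shControl and 8.36 and 8.41 in shCDK8 cells (0.03, 95% confidence interval -0.12 to 0.19). CCNC, cyclin C, read 9.71 and 9.73 against 9.50 and 9.45 (-0.24 ± 0.08, adjusted p = 0.0690). MED12, MED12L, MED13 and MED13L differed by 0.13, 0.03, 0.03 and -0.04 and were not called. A p above the threshold does not show that levels were equal. CCNC passed without either starved shControl array (0.0446 each), with the filter on dim genes (0.0461) and when the variance prior followed intensity (0.0120). In core Mediator 1 of 24 measured subunits was called, MED8 of the head module (-0.28 ± 0.08, adjusted p = 0.0426), and that call ended without any of 7 of the 8 arrays (0.0582 to 0.244).

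A total of 2624 genes (14.2%) differed between the lines after serum, of which 1419 (7.70%) were higher and 1205 (6.54%) were lower in shCDK8 cells. Which direction had more calls depended on the scaling: with each array centred on its median, 1281 genes were higher and 1398 were lower. Most differences were small. The median called change was 0.42 upward and -0.38 downward, and the smallest called change was 0.21 in size. At least a 2-fold change was reached by 116 genes upward (0.630%) and 52 downward (0.282%), 0.912% together, and a change of 3 or more on the log2 scale was reached by 6 genes, all of them higher. In 53.9% of all genes the arrays of the lines did not overlap, most of them without a call. The share of genes called went from 3.30% in the lowest quartile of mean level to 22.9% in the highest. The count rested on both duplicates: 1452 genes were called without shControl array 1, 1484 without shControl array 2, 1696 without shCDK8 array 1 and 1710 without shCDK8 array 2. Under a test against a minimum change of 1.5-fold 176 genes remained, 126 higher and 50 lower.

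**Figure D1:**
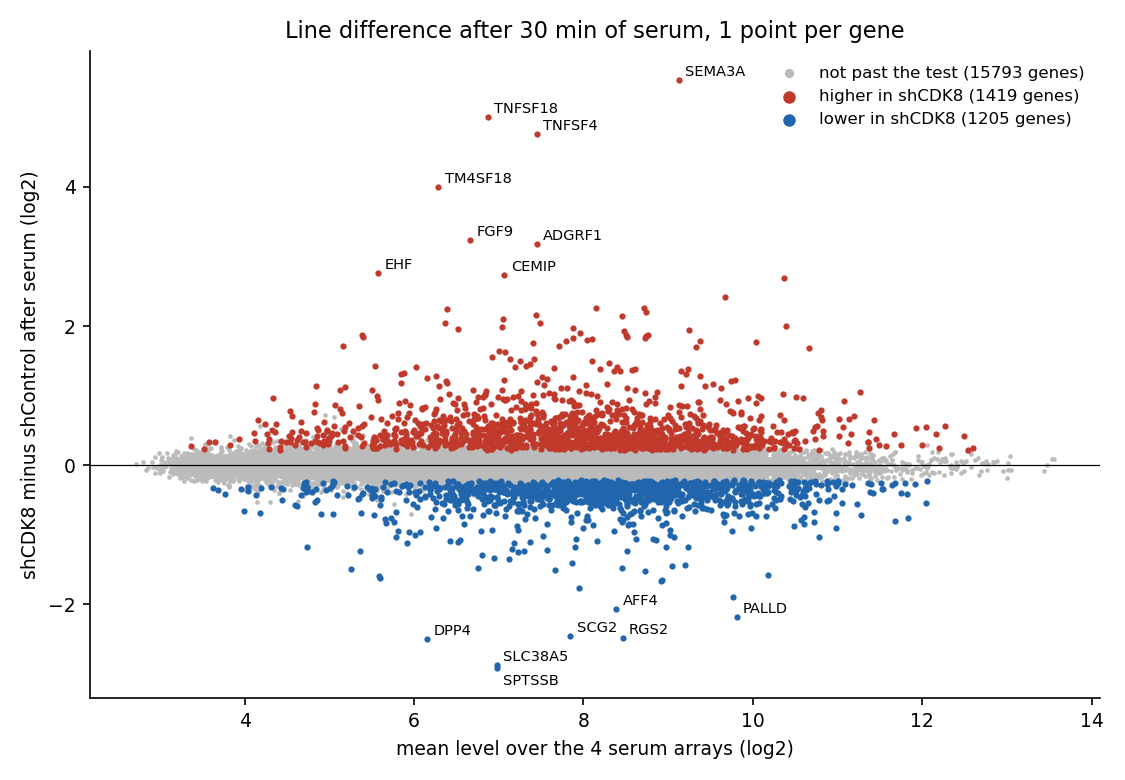
Mean log2 level over the 4 serum arrays (horizontal) against the shCDK8 minus shControl change after serum (vertical), 1 point per gene, with called genes in red (1419 higher) and blue (1205 lower). The furthest points are on the upper side, up to SEMA3A at 5.54, and the lowest are SPTSSB and SLC38A5 near the bottom edge.

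Secreted and cell-surface signalling proteins led the genes that were higher in shCDK8 cells. SEMA3A, a secreted semaphorin that guides axons and vessels, read 6.34 and 6.38 in the shControl arrays and 11.92 and 11.87 in the shCDK8 arrays, 46.4-fold higher (5.54 ± 0.07, adjusted p = 1.22e-10). Also among the largest changes were the ligands of GITR and OX40, T-cell costimulatory receptors of the TNF receptor family. TNFSF18, the GITR ligand, read 4.34 and 4.39 against 9.23 and 9.51 (32.0-fold, adjusted p = 1.60e-09), and TNFSF4, the OX40 ligand, read 5.13 and 5.02 against 9.77 and 9.89 (27.1-fold, adjusted p = 5.73e-10). In these 3 genes the shCDK8 arrays lay above the 75th percentile of all gene levels (8.44), and the shControl arrays of both TNF ligands lay below the 25th (5.55). TM4SF18, a 4-span membrane protein, read 4.21 and 4.37 against 8.31 and 8.26 (15.9-fold). FGF9, a fibroblast growth factor, read 5.36 and 4.73 against 8.22 and 8.35 (9.44-fold), the widest duplicate gap of this group. ADGRF1, an adhesion G protein-coupled receptor, read 5.82 and 5.90 against 8.94 and 9.14 (9.05-fold).

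The remaining 9 of the 15 largest increases ran from 2.76 down to 2.17 and joined transcription, matrix and signalling genes. EHF, an ETS transcription factor of epithelia, was 6.79-fold higher, from 4.08 and 4.30 to 6.80 and 7.11. CEMIP, which acts in hyaluronan breakdown, was 6.65-fold higher, from 5.85 and 5.55 to 8.39 and 8.48. The secreted morphogen BMP4 was 6.47-fold higher, from 9.05 and 9.0 to 11.70 and 11.74, and JAG1, a Notch ligand, was 5.33-fold higher, from 8.45 and 8.48 to 10.87 and 10.89. RHOU, PHLDB2, which anchors microtubules at the cell cortex, and EPB41L4A, a FERM-domain protein, were 4.81-, 4.79- and 4.72-fold higher. INPP4B, a phosphoinositide phosphatase, and PLA2G7, the platelet-activating factor hydrolase, were 4.62- and 4.49-fold higher. No detection values were used for these arrays, and the shControl means of TNFSF18, TNFSF4, TM4SF18, FGF9, EHF and EPB41L4A lay below the 25th percentile of all gene levels (5.55). Their folds compare measured values, and the true change may be larger if the low readings are background. For each of these 15 genes both shCDK8 arrays lay above both shControl arrays, which was a condition of their choice. Every called gene met that condition. The calls of the 15 held when any 1 of the 8 arrays was left out.

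The 15 genes with the largest decreases in shCDK8 cells had varied functions. SPTSSB, a small subunit of serine palmitoyltransferase, which starts sphingolipid synthesis, read 8.46 and 8.43 in shControl and 5.36 and 5.68 in shCDK8 arrays, 7.59-fold lower (-2.92 ± 0.12, adjusted p = 3.99e-07). SLC38A5, a transporter of glutamine and other neutral amino acids, read 8.40 and 8.44 against 5.56 and 5.52, 7.35-fold lower (-2.88 ± 0.11, adjusted p = 2.38e-07). DPP4, a surface peptidase, read 7.5 and 7.33 against 4.86 and 4.95, 5.68-fold lower. These genes went from the middle or upper range of levels in shControl cells to the lower range in shCDK8 cells. RGS2, which shuts off G protein signals, was 5.62-fold lower, SCG2, a secretory granule protein, 5.50-fold, and PALLD, which bundles actin, 4.54-fold, from 10.90 in both shControl arrays to 8.75 and 8.69.

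The other 9 of the 15 largest decreases included regulators of transcription and of kinase signalling. AFF4, the scaffold of the super elongation complex, which brings P-TEFb to paused RNA polymerase II, read 9.41 and 9.43 in shControl and 7.44 and 7.26 in shCDK8 arrays, 4.19-fold lower (-2.07 ± 0.09, adjusted p = 6.83e-07). DEPDC1, a gene of mitotic cells, was 3.74-fold lower. ARAF, a RAF kinase of the ERK cascade, was 3.40-fold lower, from 8.79 and 8.86 to 7.08 and 7.05. The transcription factors MEF2C, NFIB and ETV1 were 3.13-, 3.09- and 2.88-fold lower, and S100A14, a calcium-binding protein, and TMT1A, a thiol methyltransferase, 3.19- and 3.02-fold. DUSP2, a nuclear phosphatase that turns off ERK, completed the group and is described with the serum-induced genes. In all 15 both shCDK8 arrays lay below both shControl arrays, again a condition of their choice, and no call ended without any 1 array. The shCDK8 means of SPTSSB, SLC38A5, DPP4, NFIB and TMT1A lay below the 25th percentile, so their folds may likewise understate the change. Elsewhere in transcription elongation, 3 of 28 measured factors were lower (AFF4, NELFCD and PAF1) and 1 was higher (SUPT4H1, 0.44 ± 0.07), which is 14.3% called, about the 14.2% of all genes. The median of that list was -0.06 against -0.01 over all genes. NELFCD (-0.30) and PAF1 (-0.25) lost their calls when any of the 4 serum arrays was left out (adjusted p from 0.0532 to 0.0964 and from 0.0684 to 0.137), which left AFF4 as the lower gene of the list.

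**Figure D2:**
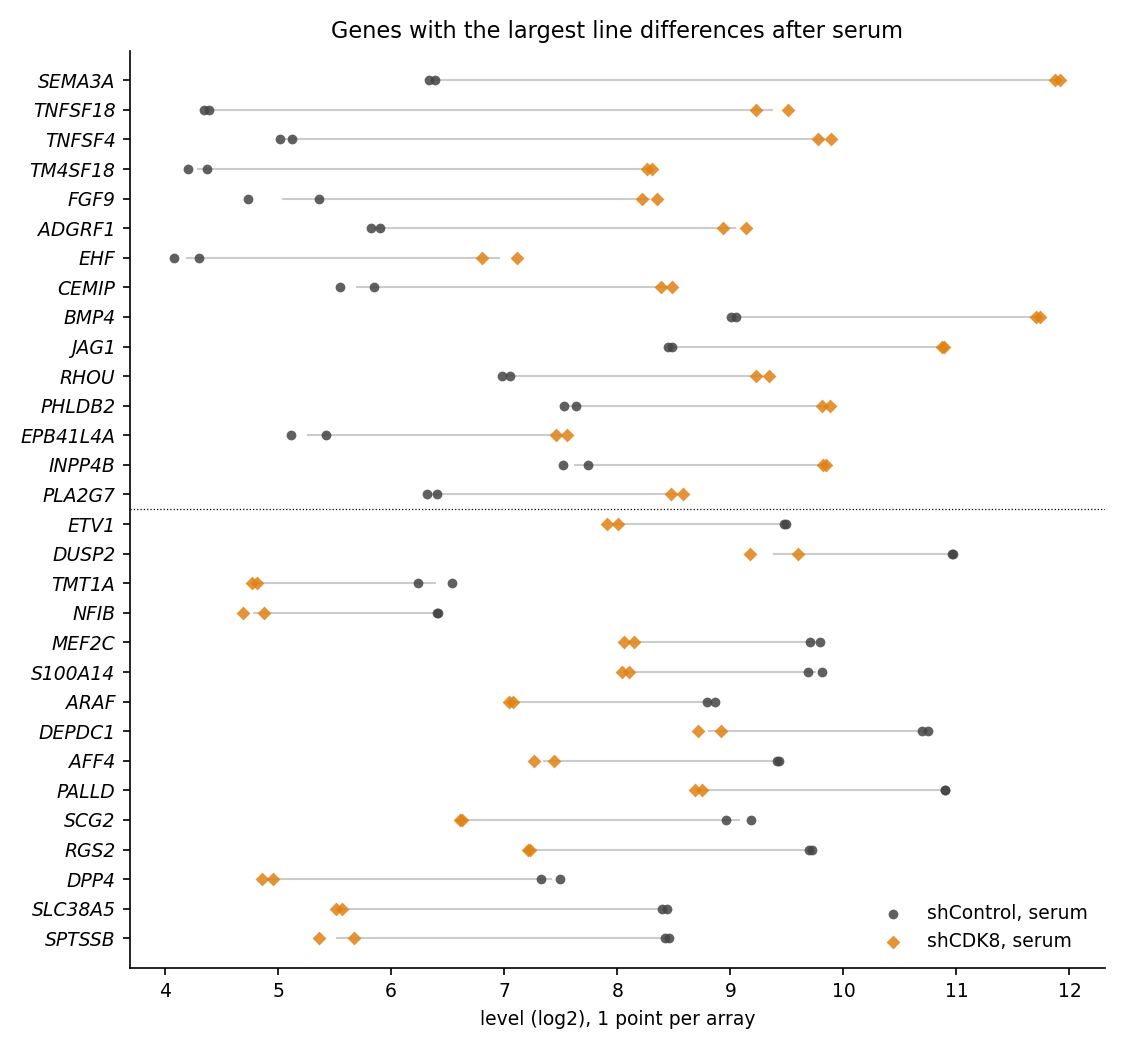
Log2 levels in the 4 serum arrays (circles shControl, diamonds shCDK8, 1 point per array, grey bars joining group means) of the 15 largest increases above the dotted line and the 15 largest decreases below it. The lines are apart for all 30 genes by the rule that chose them. Duplicates lie close together, and the widest separation is at SEMA3A, 6.34 and 6.38 against 11.92 and 11.87.

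Immediate-early genes, the textbook readout of a serum pulse, differed between the lines in both directions. Of 59 measured genes 24 were lower and 13 were higher in shCDK8 cells after serum, which is 62.7% called against 14.2% of all genes. In starved cells 14 of them were lower and 13 were higher, against 6.28% and 7.13% of all genes. The arrays of the lines did not overlap in 50 of the 59 genes, against 53.9% of all genes. Of the 24 lower genes 11 were not called in starved cells, and of the 13 higher genes 1 was not, CCN2. Their median was -0.18 after serum and -0.01 before it.

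The promoters of PTGS2, DUSP2 and CCN2 are shown because these are 3 of the 6 genes with the smallest p-values in the test of whether the line difference changed with serum, given further on. The windows are the 250 bases before the RefSeq start on GRCh38.p14, 5′ to 3′ on the strand of the gene. PTGS2 is at chr1:186680424-186680673 (minus strand), DUSP2 at chr2:96145441-96145690 (minus) and CCN2 at chr6:131951373-131951622 (minus). Capitals mark matches on either strand to any of 7 motifs, which were the CArG box of SRF, by its name, the cAMP response element TGACGTCA, the AP-1 site TGANTCA, the EGR site GCGNGGGCG, the TATA box TATAAA, the TEAD site GGAATG and the E-box CACGTG.
PTGS2: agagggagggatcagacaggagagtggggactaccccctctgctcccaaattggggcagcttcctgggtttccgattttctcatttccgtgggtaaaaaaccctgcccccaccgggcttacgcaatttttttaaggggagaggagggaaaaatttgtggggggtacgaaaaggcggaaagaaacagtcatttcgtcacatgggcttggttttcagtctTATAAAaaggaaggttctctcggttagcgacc
DUSP2: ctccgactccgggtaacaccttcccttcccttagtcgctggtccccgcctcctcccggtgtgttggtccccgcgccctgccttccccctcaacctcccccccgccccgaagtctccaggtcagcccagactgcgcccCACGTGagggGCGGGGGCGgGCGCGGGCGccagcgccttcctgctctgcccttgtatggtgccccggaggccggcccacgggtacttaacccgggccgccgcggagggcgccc
CCN2: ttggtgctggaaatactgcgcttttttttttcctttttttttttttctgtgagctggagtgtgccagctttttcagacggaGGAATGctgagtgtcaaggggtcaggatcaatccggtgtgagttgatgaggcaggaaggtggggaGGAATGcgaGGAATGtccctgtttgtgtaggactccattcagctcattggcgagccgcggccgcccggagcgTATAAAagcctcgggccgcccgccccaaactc
In these windows no matches overlapped. PTGS2 held a TATA box at positions -32 to -27 from the start, and CCN2 held one at the same place. DUSP2 held EGR sites at -103 to -95 and at -93 to -85 and an E-box at -113 to -108. CCN2 held TEAD sites that began at -169, -104 and -95. Over 27305 promoters of this length a TATA box was present in 11.1%, an EGR site in 8.25%, a TEAD site in 11.9% and an E-box in 6.49%. Of the 45 measured immediate-early genes with a window in the table, 13 held a TATA box (28.9%) and 8 an EGR site (17.8%). A match is a stretch of letters, not a measured binding site.

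Among immediate-early transcription factors 13 of 30 measured were lower and 6 were higher in shCDK8 cells. JUNB, an AP-1 subunit, read 11.33 and 11.28 in shControl and 10.12 and 10.41 in shCDK8 arrays, 2.05-fold lower (-1.04 ± 0.10, adjusted p = 9.84e-05). FOS, its classical partner, read 12.12 and 12.04 against 11.16 and 11.39 (-0.81 ± 0.10, adjusted p = 0.000610), and FOSB was lower by -0.68 ± 0.11. The early growth response factor EGR1 read 12.17 and 12.26 against 11.31 and 11.59 (-0.77 ± 0.10, adjusted p = 0.000861). For JUNB, FOS and EGR1 the shCDK8 arrays were also lower before serum (-0.91, -1.25 and -1.25), and in both lines their arrays after serum lay above those before it. EGR3, a relative of EGR1, read 8.27 and 8.62 against 7.24 and 7.53, 2.08-fold lower (-1.06 ± 0.12, adjusted p = 0.000429), with no called difference before serum (0.04). CSRNP1 (-0.73), IER2 (-0.54) and JUND (-0.49) were lower and kept their calls without any 1 array.

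Calls of other factors depended on single arrays. The nuclear receptor NR4A3 (-0.75) ended without shControl array 1 (adjusted p = 0.0520) or array 2 (0.0541), and JUN (-0.52) without shControl array 1 (0.0950), array 2 (0.0682) or shCDK8 array 1 (0.102). NR4A1 (-0.50) ended without shCDK8 array 1 (0.0554) or shControl array 2 (0.0931). ID2 (-0.40) and KLF10 (-0.26) did so without 3 and 4 of the serum arrays. The count of lower factors was accordingly 9 without shControl array 1 or shCDK8 array 1 and 8 without shControl array 2. All 6 higher factors were called whichever serum array was left out. KLF4, a Krüppel-like factor of differentiating epithelium, read 7.61 and 7.40 against 8.76 and 9.01, 2.60-fold higher (1.38 ± 0.10, adjusted p = 1.37e-05). HES1, a Notch effector, and KLF6 were 1.97- and 1.95-fold higher. ID3 (0.58), ID1 (0.55), which are BMP-responsive inhibitors of bHLH factors, and MYC (0.34) were also higher.

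The other immediate-early genes, which encode signalling, RNA-binding and secreted proteins, were split in the same way, with 11 of 29 lower and 7 higher. PTGS2, the inducible cyclooxygenase, read 6.06 and 5.90 in shControl and 4.60 and 4.88 in shCDK8 arrays after serum, 2.35-fold lower (-1.23 ± 0.12, adjusted p = 0.000165). Before serum its 4 arrays lay between 4.31 and 4.65, so the shCDK8 arrays after serum were near the starved level and the shControl arrays were not. The starved readings and the shCDK8 serum readings lay below the 25th percentile of all gene levels (5.55) and may be background. ARC, an immediate-early gene best known from synapses, read 8.40 and 8.41 against 7.67 and 7.68 (-0.73 ± 0.07, adjusted p = 0.000137), and its starved arrays lay between 7.57 and 7.74. ZFP36, which speeds the decay of AU-rich mRNAs, read 9.38 and 9.33 against 8.29 in both shCDK8 arrays, 2.09-fold lower (-1.06 ± 0.07, adjusted p = 1.12e-05). NAB2, a corepressor that binds EGR proteins, the antiapoptotic MCL1 and the pseudokinase TRIB1 were lower by 1.62-, 1.43- and 1.32-fold.

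HBEGF, a ligand of the EGF receptor (-0.52), GEM, a small GTPase (-0.73), and GDF15, a stress cytokine (-0.43), were lower too, but each call ended without shControl array 1 (adjusted p = 0.0833, 0.0741 and 0.129) or shCDK8 array 1 (0.0752, 0.0529 and 0.114). PLK3 (-0.33) and ZFP36L2 (-0.29) lost theirs without 3 and 4 of the serum arrays, and the count of lower genes was 6 without shControl array 1 or shCDK8 array 1. PLK2, a polo-like kinase, was the immediate-early gene with the largest difference, from 9.41 and 9.38 to 11.32 and 11.47, 4.01-fold (2.0 ± 0.07, adjusted p = 1.75e-07). CCN2, a secreted matricellular protein, read 7.43 in both shControl arrays and 8.23 and 8.43 in the shCDK8 arrays, 1.87-fold higher (0.90 ± 0.08, adjusted p = 0.000109). Its starved arrays lay between 7.20 and 7.36 in both lines, so here the shCDK8 arrays alone stood well above the starved level. ZFP36L1 (0.75), the kinase SGK1 (0.70), AMOTL2 (0.51) and the GTPase RHOB (0.45) were higher and LIF (0.39) was higher with a call that ended without either shControl array (0.173 and 0.0543) or shCDK8 array 2 (0.172).

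**Figure D3:**
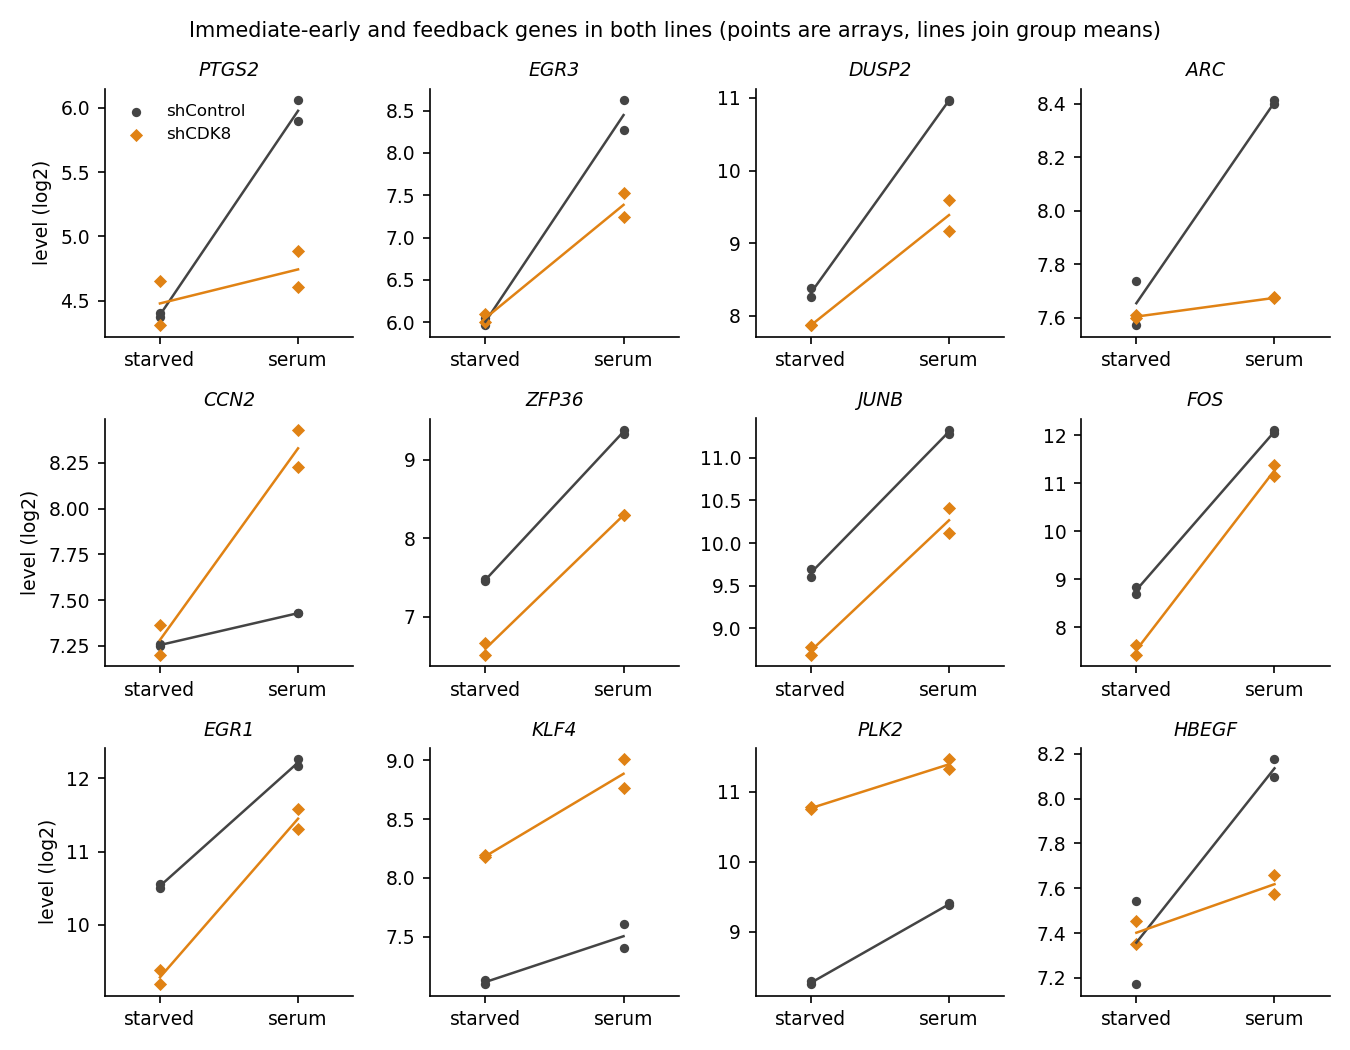
Log2 levels of 12 immediate-early and feedback genes in starved and serum-treated cells, with circles and dark lines for shControl, diamonds and orange lines for shCDK8, 1 point per array and lines joining the means of 2 arrays. PTGS2, EGR3 and ARC start together and part after serum, CCN2 parts the other way (7.43 against 8.23 and 8.43), JUNB, ZFP36, FOS and EGR1 are lower in shCDK8 cells at both times, and KLF4 and PLK2 are higher at both.

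Whether the line difference itself changed with serum was tested as the difference after serum minus the difference in starved cells. No gene passed (limma, smallest adjusted p = 0.203), and 703 genes (3.82%) had an unadjusted p below 0.05. The smallest p-values belonged to PTGS2 (-1.32 ± 0.18), LOC728024 (-0.70 ± 0.09), CCN2 (0.87 ± 0.12), UGT2B10 (0.65 ± 0.09), ARC (-0.68 ± 0.10) and DUSP2 (-1.13 ± 0.17), all at an adjusted p of 0.203. DUSP2 read 10.97 and 10.96 in shControl and 9.17 and 9.60 in shCDK8 arrays after serum, 2.99-fold lower (-1.58 ± 0.12, adjusted p = 2.40e-05), against -0.45 in starved cells. EGR3 followed with a difference of -1.10 ± 0.17 (adjusted p = 0.295). LOC728024 differed in starved cells (0.66) and not after serum (-0.04). An intensity trend in the variance prior let 7 genes pass, namely DUSP2, PTGS2, CCN2, EGR3, LOC728024, PLK2 and ARC (adjusted p from 0.0123 to 0.0282). Without shCDK8 serum array 2, 1 gene passed, DUSP2 (0.0212).

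In that test 21 of the 59 immediate-early genes had an unadjusted p below 0.05, 16 of them with a negative difference, against 3.82% of all genes. Directions were mixed. FOS (0.44 ± 0.14) and EGR1 (0.48 ± 0.14) had positive differences, since shCDK8 cells lay further below shControl cells before serum than after it, while JUN (-0.71 ± 0.17), HBEGF (-0.56 ± 0.16) and PLK2 (-0.50 ± 0.10) had negative ones. None of these 5 passed after adjustment (adjusted p from 0.730 to 1.00). Among genes called after serum, the 5 most positive differences were those of CCN2, UGT2B10, ELAPOR1 (0.54), ZNF674 (0.53) and EHF (0.52). ELAPOR1 was in this set through a call after serum that ended without shCDK8 array 1 (0.110) or shControl array 2 (0.140). The 5 most negative were those of PTGS2, DUSP2, EGR3, SLC35G3, a solute carrier (-0.81), and SNORD102, a small nucleolar RNA (-0.72).

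Feedback regulators of the MAPK cascade, many of which growth factors induce, were divided between the lines. Of 23 measured, 3 were lower (RGS2, DUSP2 and DUSP1) and 4 were higher (DUSP4, SPRY1, DUSP6 and SPRED1), with a list median of -0.04. The share called was 30.4%, against 14.2% of all genes. DUSP1, the immediate-early MAPK phosphatase, read 11.57 and 11.45 against 10.83 and 11.07 (-0.56 ± 0.10, adjusted p = 0.00585). DUSP4, another nuclear ERK phosphatase, read 8.83 and 8.77 against 9.55 and 9.75 (0.85 ± 0.08, adjusted p = 0.000105), opposite to DUSP2. The cytosolic ERK phosphatase DUSP6 and the RAS pathway inhibitor SPRY1 were higher by 0.38 and 0.49. The DUSP1 call ended without shControl array 1 (0.0524), and the SPRED1 call (0.30) without shControl array 1 (0.107), array 2 (0.0904) or shCDK8 array 1 (0.129). In the RAS, RAF, MEK and ERK core 2 of 15 were lower, ARAF and the MEK kinase MAP2K1 (-0.35), and 2 were higher, the RAS relative MRAS (0.60 ± 0.08, adjusted p = 0.00128) and the adaptor SHC1 (0.25). In this core 26.7% were called. The MAP2K1 call ended without shCDK8 array 1 (0.0590) or shControl array 2 (0.0710), and the SHC1 call without any 1 of the 8 arrays (0.0540 to 0.247).

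Secreted ligands and their receptors were mostly higher where they were called. In the TNF superfamily 6 of 29 measured members were higher and 1 was lower, with a list median at 0.00, against 7.70% higher and 6.54% lower over all genes. Besides TNFSF18 and TNFSF4 the 4 other higher members were death receptors and their relatives. TNFRSF21 (DR6) read 8.47 and 8.61 against 9.84 and 10.01, 2.62-fold higher (1.39 ± 0.08, adjusted p = 4.32e-06). The TRAIL receptors TNFRSF10A, TNFRSF10B and TNFRSF10D were higher by 0.46, 0.39 and 0.38. TNFSF14, another ligand, was lower (-0.26), a call that ended without any of the 4 serum arrays (0.0588 to 0.171). Among semaphorins, neuropilins, plexins and netrins 9 of 28 were higher and 0 were lower, with a median of 0.13. SEMA3C, also secreted, read 8.26 and 8.29 against 10.20 and 10.25, 3.85-fold higher (1.95 ± 0.06, adjusted p = 1.50e-07), and SLIT2, a ligand of ROBO receptors, read 5.27 and 5.42 against 7.31 and 7.47, 4.13-fold higher. NTN4, a netrin, and PLXNA1, a semaphorin coreceptor, were 1.76- and 1.45-fold higher. The count of higher members was 6 without shCDK8 array 2 and 5 without shControl array 1, which ended the calls of PLXNB2 (0.0557), PLXNB1 (0.133), SEMA3F (0.105) and PLXNA2 (0.161).

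In TGF-β and BMP signalling secreted ligands act through SMAD transcription factors. Of 24 measured members 12 were higher and 1 was lower, with a median of 0.23. This is 54.2% called, against 14.2% of all genes (7.70% higher and 6.54% lower). Ligands were changed in both directions. BMP4 was 6.47-fold and TGFB2 1.46-fold higher, while TGFB1 read 8.87 and 8.78 against 8.01 and 8.08, 1.71-fold lower (-0.78 ± 0.07, adjusted p = 0.000122). Receptors and signal transducers were higher: TGFBR2 by 0.50, SMAD3 by 0.78 and SMAD1 by 0.35. Inhibitors that the pathway itself induces were higher as well. BAMBI, a decoy receptor, read 7.02 and 7.0 against 8.84 and 8.98, 3.73-fold higher (1.90 ± 0.08, adjusted p = 4.20e-07), and SMAD7, SMAD6 and SKIL were 1.92-, 1.74- and 1.70-fold higher. ID1 and ID3, both BMP targets, were higher by 0.55 and 0.58. The SMAD1 call ended without shControl array 2 (0.0726), and those of TGFBR1 (0.30), SMAD5 (0.24) and BMP7 (0.22) without 3, 4 and 8 of the arrays, with 8 to 10 members higher when 1 serum array was left out.

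In the Notch pathway 5 of 21 measured members were higher and 0 were lower, with a median of 0.06. This is 23.8% called, against 14.2% of all genes. JAG1 and HES1 kept their calls without any 1 array. NOTCH3 (0.30) and the ligand-shedding proteases ADAM10 (0.24) and ADAM17 (0.24) lost theirs without any of the 4 serum arrays (0.0534 to 0.199), so that 2 members were called in each of those fits. Of 18 Wnt and β-catenin targets 7 were higher and 0 were lower, with a median of 0.10. SOX9, an intestinal progenitor factor, read 7.87 and 7.91 against 9.24 and 9.27, 2.57-fold higher (1.36 ± 0.07, adjusted p = 2.73e-06). RNF43, which removes Wnt receptors, read 8.70 and 8.76 against 10.00 and 10.04, 2.44-fold higher. The adhesion receptor CD44 was 2.07-fold higher, and AXIN2, the scaffold of β-catenin destruction, and the secreted Wnt inhibitor DKK1 were 1.60- and 1.63-fold higher. NOTUM, another secreted inhibitor, was higher by 0.28 with a call that ended without any of the 4 serum arrays (0.0578 to 0.103), and the list held 6 higher members in each of those fits.

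Among FGF and EGF family ligands and receptors 5 of 22 were higher and 2 were lower, with a median of 0.07. This is 31.8% called, against 14.2% of all genes. FGFBP1, a carrier that releases FGFs from matrix, was 2.02-fold higher, and the EGF receptor ligands TGFA and NRG1 were 1.54- and 1.48-fold higher, while HBEGF and the receptor ERBB3 (-0.43 ± 0.07) were lower. ERBB2 (0.25) was higher with a call that ended without any 1 of the 8 arrays (0.0552 to 0.261). Of 17 targets of YAP and TEAD, the growth control factors of the Hippo pathway, 7 were higher and 0 were lower, with a median of 0.16. F3, tissue factor, read 7.21 and 7.29 against 8.30 and 8.42, 2.16-fold higher (1.11 ± 0.10, adjusted p = 9.84e-05), CCN2 was 1.87-fold higher and THBS1, thrombospondin, was 1.60-fold higher. The shCDK8 arrays of THBS1 were 9.39 and 9.95, and its call ended without shControl array 1 (0.0558) or array 2 (0.0661). CRIM1 (0.31) lost its call without shControl array 1 (0.0929) or shCDK8 array 1 (0.0592). Of 13 measured targets with a promoter window 5 held the TEAD letters GGAATG, as CCN2 did, against 11.9% of all promoters. The list was chosen as TEAD targets, so this share says nothing about the line difference.

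Genes of cell division were lower in shCDK8 cells almost throughout. Of 27 measured genes of the mitotic spindle and chromosome segregation 25 were lower and 0 were higher, against 6.54% of all genes lower, with a median of -0.49. HMMR, a spindle protein, read 8.47 and 8.37 in shControl and 6.83 and 6.99 in shCDK8 arrays, 2.85-fold lower (-1.51 ± 0.11, adjusted p = 1.92e-05). CDC25C, the phosphatase that activates CDK1, was 2.35-fold lower, CDC20, an activator of the anaphase-promoting complex, 1.93-fold, and the kinesin KIF20A 1.90-fold. CDK1 itself read 8.80 and 8.83 against 8.11 and 8.13 (-0.69 ± 0.06, adjusted p = 9.63e-05). Between 22 and 24 members were lower when 1 serum array was left out. In starved cells 26 were lower, with a median of -0.57, so the shift was present before serum. In a bulk measurement fewer dividing cells and less RNA per cell cannot be told apart.

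DNA replication followed with smaller sizes. Of 29 measured E2F targets and replication genes 19 were lower and 0 were higher, with a median of -0.34. The repressor E2F8 was 1.56-fold lower, and the nucleotide enzymes TK1 and RRM2 were 1.53- and 1.41-fold lower. TK1 read 10.56 in both shControl arrays and 9.97 and 9.94 in the shCDK8 arrays. Helicase subunits MCM2, MCM4 and MCM6 were lower by -0.45, -0.38 and -0.40. The count of lower members was 10 without shControl array 2 and 13, 13 and 14 without the other serum arrays. No member passed against a minimum change of 1.5-fold. Among G1 cyclins, CDKs and their inhibitors 1 of 15 was higher and 2 were lower, 20% called against 14.2% of all genes. CDK6, a G1 kinase, went the other way from CDK1, from 7.55 and 7.63 to 9.46 and 9.41, 3.58-fold higher (1.84 ± 0.10, adjusted p = 3.31e-06). CDKN1A, the p53-induced CDK inhibitor p21, read 8.84 and 8.86 against 8.96 and 9.29 and was not called (0.27 ± 0.10, adjusted p = 0.103). It passed without shCDK8 array 1 (0.44, adjusted p = 0.0109) and with an intensity trend (0.0309). RBL1 (-0.36) and CDKN2A (-0.23) were lower, and both calls ended without either shControl array (0.0520 and 0.106, and 0.139 and 0.160) or shCDK8 array 1 (0.0977 and 0.0829), and CDKN2A also without the other shCDK8 arrays (0.0519 to 0.162).

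Of 25 measured p53 targets 14 were higher and 3 were lower, with a median of 0.33. Besides PLK2, TP53I3 read 8.0 and 8.14 against 9.14 and 9.15, 2.11-fold higher (1.07 ± 0.07, adjusted p = 9.95e-06). TP53INP1, an autophagy and stress protein, was 1.92-fold higher, TIGAR, which lowers glycolytic flux, 1.77-fold, ZMAT3, an RNA-binding protein, 1.68-fold, and MDM2, the ligase that degrades p53, 1.43-fold. GDF15, PMAIP1 and PLK3, which are also induced by serum or stress, were the 3 lower members, and 0 members were lower without shControl array 1 or shCDK8 array 1, with 10 and 11 higher. In the BCL2 family 3 of 15 were higher and 3 were lower, 40.0% called against 14.2% of all genes. BCL2L1, the antiapoptotic BCL-XL, read 9.96 in both shControl arrays and 10.68 and 10.69 in the shCDK8 arrays, 1.65-fold higher (0.72 ± 0.06, adjusted p = 5.33e-05), and the BH3-only BIK was higher by 0.44. MCL1, also antiapoptotic, was lower by -0.51. The BH3-only proteins PMAIP1 (-0.35), BAD (-0.30) and BMF (0.22) had calls that ended without shControl array 1 (0.0677, 0.0771 and 0.216) and without 1, 2 and 7 further arrays.

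Of 18 FOXO targets, genes switched off by growth factor signalling through AKT, 5 were higher and 2 were lower, with a median of 0.12. The share called was 38.9%, against 14.2% of all genes. TRIB2, a pseudokinase, read 6.21 and 6.54 against 7.82 and 7.98, 2.88-fold higher (1.52 ± 0.12, adjusted p = 2.57e-05). KLHL24 and the insulin receptor substrate IRS2 were 1.60- and 1.44-fold higher, while SESN3 was 1.58-fold lower. PIK3IP1 (0.65) lost its call without shControl array 1 (0.0514), and KLF15 (-0.29) without either shControl array (0.0721 and 0.136) or shCDK8 array 2 (0.132).

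Hypoxia genes were lower in most calls, with opposite changes among glucose transporters. Of 25 hypoxia and glycolysis genes 11 were lower and 2 were higher, with a median of -0.15. The collagen hydroxylase P4HA1 read 9.97 and 9.68 against 8.59 and 8.69, 2.27-fold lower (-1.18 ± 0.11, adjusted p = 0.000128), and BNIP3, a mitophagy receptor, was 1.96-fold lower. The glucose transporters parted: SLC2A3 read 8.49 and 8.41 against 7.33 and 7.77, 1.87-fold lower, and SLC2A1 read 9.08 and 9.22 against 10.89 and 10.96, 3.41-fold higher (1.77 ± 0.07, adjusted p = 3.44e-07). Hexokinase HK2 was 1.57-fold and ADM, a vasodilator peptide, 1.5-fold lower. With 1 serum array left out 7 members were lower, or 8 without shControl array 1. Of 21 genes of ATF4 and the unfolded protein response 3 were lower and 1 was higher, 19.0% called against 14.2% of all genes. The list median was -0.04, with 10 members above 0 and 11 below. DDIT3 (CHOP), a stress transcription factor, read 6.72 in both shControl arrays and 5.68 and 5.94 in the shCDK8 arrays, 1.88-fold lower (-0.91 ± 0.10, adjusted p = 0.000220). The higher member, the stress sensor SESN2 (0.34), lost its call without shControl array 1 (0.0834) or shCDK8 array 2 (0.0548). The lower calls of DDIT4 (-0.47) and PHGDH (-0.35) ended without shControl array 1 (0.0570) or shCDK8 array 1 (0.0611), and without shControl array 2 (0.0566).

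Genes of lipid synthesis and amino acid transport changed in both directions. Of 17 measured genes of cholesterol and fatty acid synthesis 7 were higher and 1 was lower, with a median of 0.11. FASN, the fatty acid synthase, read 10.70 and 10.68 against 11.35 and 11.36, 1.59-fold higher (0.67 ± 0.07, adjusted p = 0.000244), and HMGCS1 and LSS of the cholesterol branch were 1.39- and 1.43-fold higher, while SQLE was 1.37-fold lower. The calls of MVD, MVK, FDPS and SCD (0.27 to 0.42) depended on single arrays, and the higher count was 3 without shControl array 1 and 4 without shControl array 2 or shCDK8 array 2. In sphingolipid synthesis 2 of 19 were lower, KDSR (1.58-fold) and SPTSSB, a small subunit of serine palmitoyltransferase, and 2 were higher. That is 21.1% called against 14.2% of all genes, with a list median of 0.005. SPTLC2 (0.30), the catalytic partner of SPTSSB, and UGCG (0.34) were higher, with calls that ended without shControl array 2 (0.0753 and 0.0597) or shCDK8 array 2 (0.0553 and 0.0507), and for SPTLC2 also without the other serum arrays (0.0694 and 0.0591). Of 19 amino acid transporters 2 were lower, SLC38A5 and the glutamine transporter SLC1A5 (-0.41), and 3 were higher, led by the glutamate transporter SLC1A3 (1.21 ± 0.09, 2.31-fold). The share of transporters called was 26.3%, against 14.2% of all genes. SLC1A5 ended without shControl array 2 (0.0517) or when the probe sets of a gene were averaged (-0.21, adjusted p = 0.0877), SLC7A11 (0.42) without either shControl array (0.0899 and 0.0536) or shCDK8 array 1 (0.0958), and SLC1A1 (0.44) without shControl array 1 (0.115) or shCDK8 array 2 (0.119).

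Integrins and matrix genes were higher where they were called, and cytoskeletal genes were mixed. Of 21 integrins, laminins and collagens 9 were higher and 0 were lower, with a median of 0.05. ITGB8, an integrin that activates latent TGF-β, read 6.43 and 6.55 against 7.90 in both shCDK8 arrays, 2.66-fold higher (1.41 ± 0.10, adjusted p = 1.35e-05), and the laminin chain LAMB1 was 1.87-fold higher. ITGB5 and ITGB4 were 1.63- and 1.58-fold higher, and these 4 were the members called without shControl array 1. ITGA3, ITGA6, ITGAV, LAMA5 and FN1 (0.28 to 0.34) lost their calls in that fit (0.0574 to 0.131), with 6 higher members without shCDK8 array 1. Among cadherins and genes of epithelial-mesenchymal transition 4 of 20 were higher, including the P-cadherin CDH3 (0.65) and the desmosomal DSP (0.48), and the tight junction gene CLDN4 was lower (-0.41). The calls of CDH1 and of TWIST1 (0.25), a mesenchymal factor, ended without any of the 4 serum arrays (0.0691 to 0.109 and 0.0890 to 0.227), TWIST1 also without any of the starved arrays (up to 0.0513). Of 19 targets of SRF and MRTF, which respond to serum through actin, 3 were higher and 2 were lower, 26.3% called against 14.2% of all genes. CALD1 (0.72) and ACTA2 (0.50) were higher, PALLD was 4.54-fold lower, and the call of TPM2 (-0.37) ended without shControl array 2 (0.0559). TPM1 (0.28) lost its call without any of 7 of the 8 arrays (0.0527 to 0.245). Tetraspan proteins gave 3 of 18 higher, TM4SF18, TSPAN13 (1.11 ± 0.07, 2.15-fold) and TSPAN6 (0.32), and TSPAN1 lower (-0.44). Their share called was 22.2%, against 14.2% of all genes. TSPAN6 lost its call without any serum array (0.0743 to 0.247) or either starved shControl array (0.0543) and TSPAN1 without shControl array 2 (0.0531).

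Among immune genes, interferon-response and MHC class I genes were called in 30.4% and 30.0% of members, and NF-kB targets in 15.8%, against 14.2% of all genes. Of 23 interferon-response genes 5 were higher and 2 were lower, with IFIT1, an antiviral RNA-binding protein, 1.66-fold higher and IFITM1 1.78-fold lower. In MHC class I antigen presentation 3 of 10 were lower, B2M, the invariant light chain (10.29 and 10.35 against 9.78 and 9.74, -0.56 ± 0.06), the immunoproteasome subunit PSMB9 (-0.35) and NLRC5 (-0.23). The NLRC5 call ended without any 1 of the 8 arrays (0.0513 to 0.243). Of 19 NF-kB targets, chemokines and cytokines 2 were lower, NFKB1 (-0.30) and SOD2 (-0.26), and 1 was higher, ICAM1 (0.48), and all 3 calls ended without shControl array 1 (0.0749, 0.200 and 0.0540). NFKB1 and SOD2 also lost theirs without shControl array 2 (0.0588 and 0.0598) or shCDK8 array 2 (0.0651 and 0.0743). Among 16 heat shock chaperones DNAJB4 (-0.33) was lower and BAG3 (0.25) was higher, and among 23 cytosolic ribosomal proteins RPS23 (0.33) was higher, which is 12.5% and 4.35% called. These 3 calls ended without shControl array 1 (0.106, 0.215 and 0.0972) or shCDK8 array 1 (0.0890, 0.173 and 0.0570). Of 12 housekeeping genes 4 were lower, led by the transferrin receptor TFRC (11.46 and 11.40 against 10.57 and 10.49, -0.90 ± 0.07, adjusted p = 1.82e-05), followed by B2M, HPRT1 (-0.38) and GUSB (-0.25). HPRT1 lost its call without shControl array 1 (0.126) or shCDK8 array 2 (0.117), and GUSB without any 1 of the 8 arrays (0.0560 to 0.252).

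**Figure D4:**
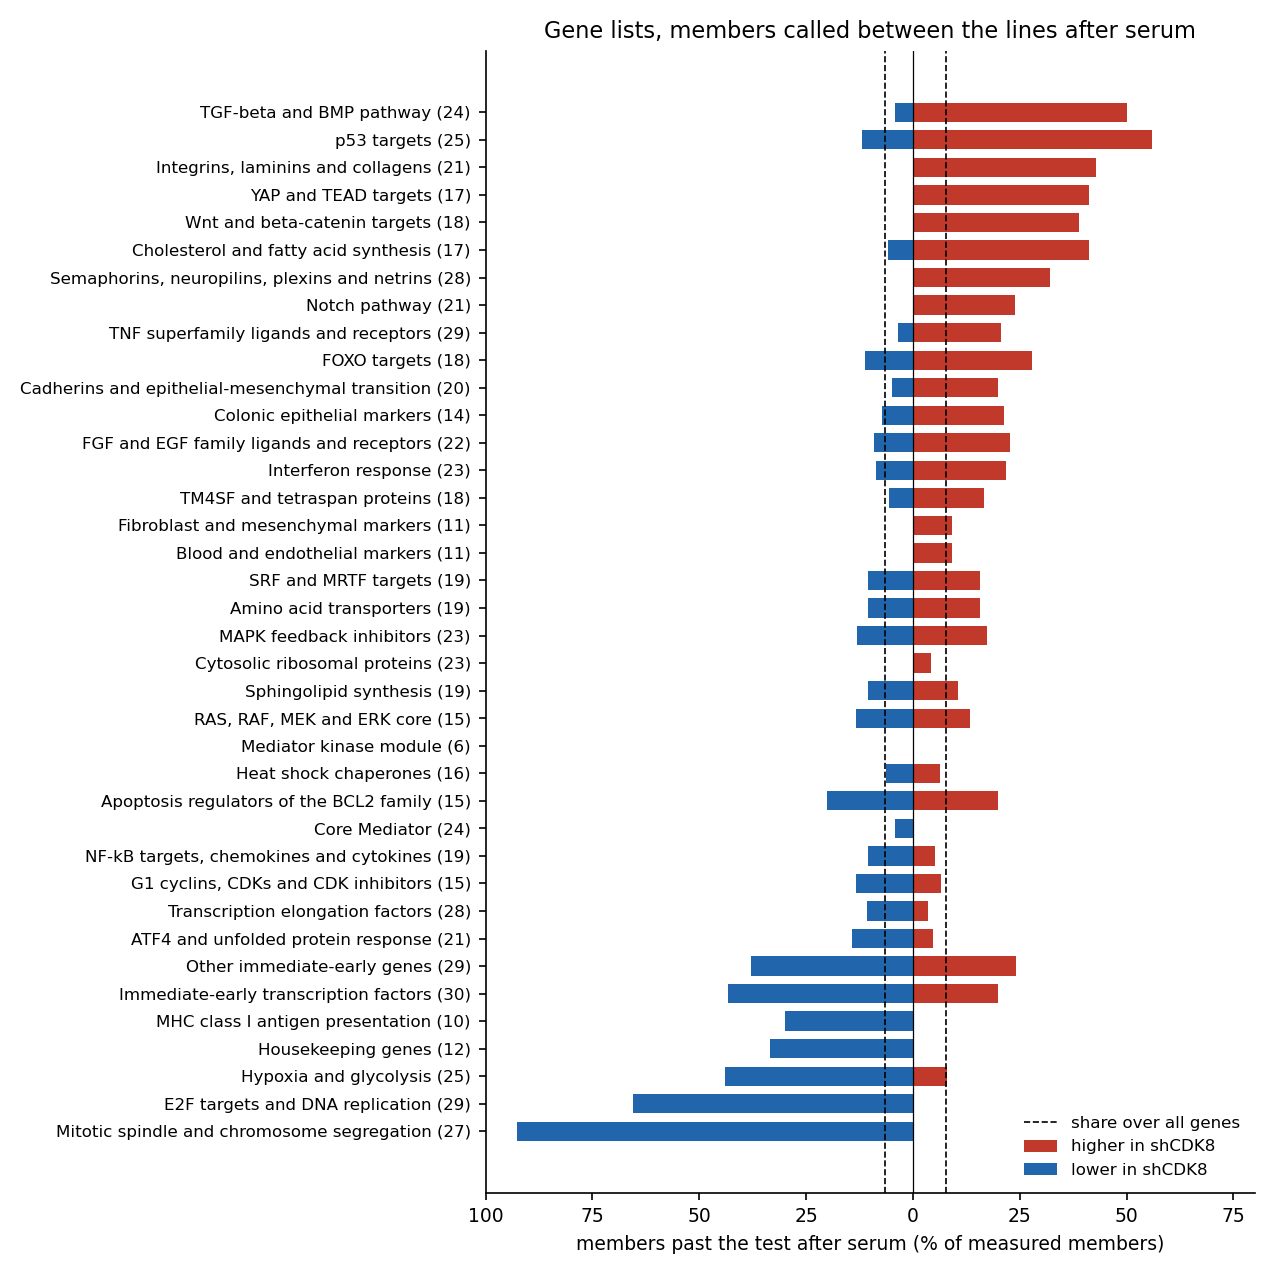
Share of the measured members (number in brackets) of each gene list that were higher (red, to the right) or lower (blue, to the left) in shCDK8 cells after serum, in percent, with dashed lines at the share over all genes (7.70% higher, 6.54% lower). Mitotic genes reach 92.6% lower, TGF-β and BMP genes and p53 targets lead the higher side, and immediate-early genes extend to both sides.

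The line difference after serum was for the most part the line difference before it. Of the 2624 genes called after serum 1877 were called in the same direction in starved cells, which is 71.5% of the calls after serum, 76.0% of the 2470 calls in starved cells and 10.2% of all genes. They comprised 1042 higher and 835 lower genes. Of the 168 genes at least 2-fold apart after serum 166 were also called before it, and the 2 others were EGR3 and PTGS2. SEMA3A differed by 5.52 before serum and 5.54 after it, JAG1 by 2.45 and 2.41, and PALLD by -2.18 at both times. A further 746 genes were called after serum and not in starved cells. Of these 695 had the same sign in starved cells and 430 had an unadjusted p below 0.05 there, so a missed threshold before serum does not show a difference made by serum. The number called at both times was 1197 without shControl serum array 1, 1237 without shControl serum array 2 and between those counts and 1381 without any 1 of the other 6 arrays.

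**Figure D5:**
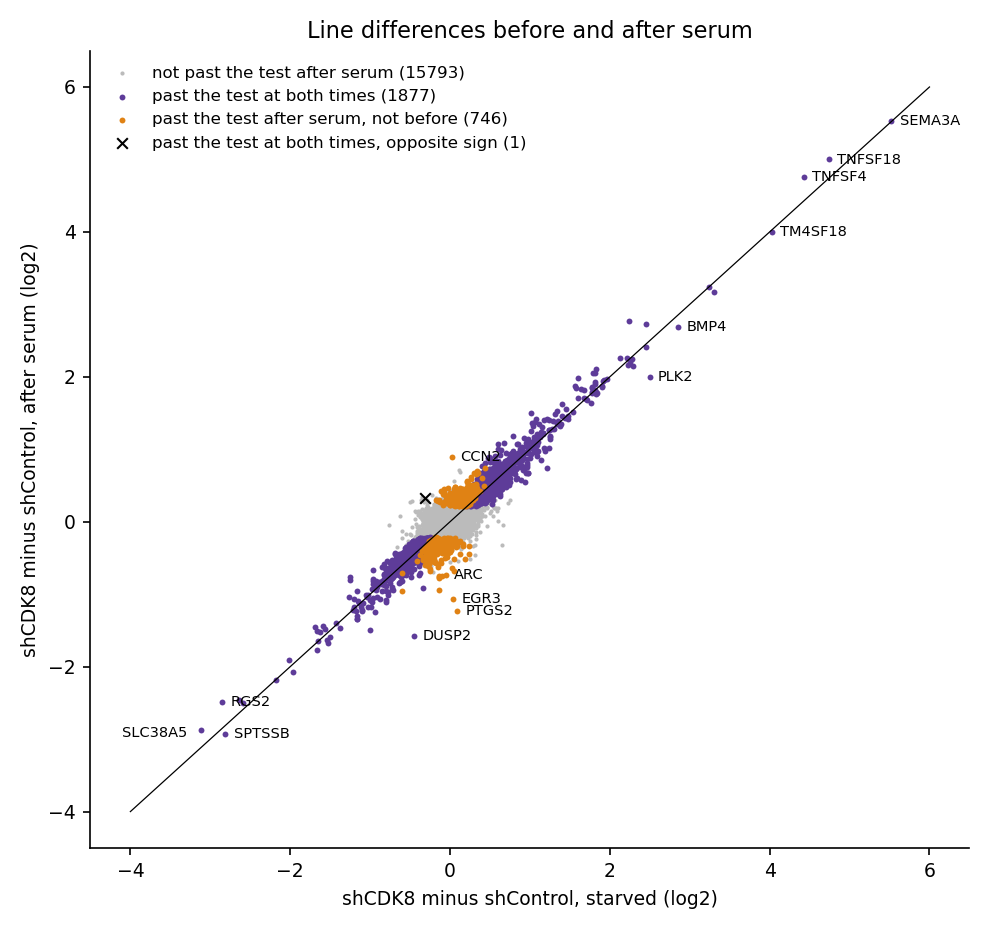
The shCDK8 minus shControl difference in starved cells (horizontal) against that after serum (vertical), both log2, 1 point per gene, with the line of equality. The large differences lie on the line (SEMA3A 5.52 and 5.54), while PTGS2, EGR3, ARC and DUSP2 lie below it and CCN2 lies above it, and the cross marks UGT2B10.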

How the data were processed

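Total RNA of 8 samples was hybridised to Affymetrix human gene arrays. The deposited values were log2 expression per probe set, made by the authors with RMA per the submitters' processing notes. For the RMA version, the build and joint or separate normalization of arrays, the entry is not given in the sources used here. Of 33297 probe sets, 19460 had exactly 1 gene in the platform annotation and gave 18417 genes (19429 probe sets matched RefSeq by Entrez number), by the probe set with the highest mean where a gene had several. In R 4.3.3, limma 3.58.1 (lmFit, eBayes) took all 8 arrays in a model of 4 group means with 4 residual degrees of freedom, with Benjamini-Hochberg adjustment over all genes and a threshold of 0.05. Other work used Python 3.11.15, pandas 2.3.3 and matplotlib 3.10.9. Simulated data took their variances from the fitted prior, with no intensity trend. In them 50 genes per size were shifted, in the shCDK8 serum group alone. Of genes changed by 0.5 on the log2 scale 76% were recovered, and 98% of those changed by 1, and 4.1% of calls were false. The real data differ in these settings, so these shares check the fit and are not error rates of the real calls.

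Named genes were the kinase module, the 15 largest called changes each way, the 6 smallest p-values of the difference with serum, its 5 most positive and 5 most negative values among called genes, and in each list the 4 members that differed most, called ones first. The largest changes were taken among genes whose serum arrays did not overlap between the lines, which held for every called gene. Further list members were named after their values were seen. The comparison and the lists were chosen with earlier results of these data known, and lists share genes. Alternatives changed the variance prior, the samples fitted, the normalization, the dim-gene filter, the probe set rule, a minimum change, a replicate block and the arrays kept.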

Additional observations from a re-analysis of the deposited data

Results flagged for a closer look

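UGT2B10, a glucuronosyltransferase of the liver, was called in opposite directions at the 2 times. After serum it read 3.36 and 3.46 in shControl and 3.76 and 3.73 in shCDK8 arrays (0.33 ± 0.07, adjusted p = 0.00867, limma), and in starved cells it read 3.58 and 3.55 against 3.23 and 3.27 (-0.31, adjusted p = 0.0119). The change between the times was 0.65 ± 0.09 and did not pass over all genes (adjusted p = 0.203). All 8 values lay below the 25th percentile of gene levels (5.55), and the call after serum ended without shControl array 1 (0.0826) or shCDK8 array 1 (0.0537).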

How the results depend on the processing

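No named gene that passed the test changed direction under any alternative. This was largely set in advance, since most alternatives left the estimated changes as they were. The serum arrays of every called gene also did not overlap between the lines. Against a minimum change of 1.5-fold, 91 of the 148 named genes that passed lost their call. The balance of calls did turn: with each array centred on its median 1281 genes were higher and 1398 lower. List medians close to 0 also changed sign, for example that of MAPK feedback genes, from -0.04 to 0.04 without shControl serum array 2. Against a minimum change of 1.5-fold 176 genes were called after serum, 126 higher and 50 lower, and 143 were called in the same direction at both times. An intensity trend in the variance prior let 7 genes pass the test of the difference with serum, in place of 0. With 1 array left out, 1452 to 2564 genes were called, 804 to 1394 higher and 595 to 1170 lower, 1197 to 1381 were called at both times, and 0 to 1 passed the difference test; the lowest counts came without a shControl serum array, and a fit without 1 array has fewer samples. The other alternatives gave 2314 (the 4 serum arrays alone, which give no value for the starved contrasts) to 3369 calls (intensity trend). With the replicate number as a block 2545 genes were called, 1787 of them at both times. The labels do not say that numbers mark a shared batch, and deviations of same-numbered arrays correlated between -0.186 and 0.126 over the group pairs, so the block is an alternative and not a pairing. Duplicate arrays and their spread limit what could be called: the smallest called change was 0.21, and probe sets in the lowest quartile of level gave 3.30% of genes called.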

Other observations

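Small nucleolar RNAs, which guide chemical modification of ribosomal RNA, were described as a class after their values were seen. Of 175 tested 22 were lower and 2 were higher in shCDK8 cells after serum (12.6% lower, median -0.11), against 6.82% lower among 16902 protein-coding genes. In starved cells 9 were lower and 2 were higher (median -0.05), where 6.28% of all genes were lower and 7.13% higher. No gene passed the test of the difference with serum, and a change of the class with serum was not tested. SNORD51 (-0.95), SNORD1B (-0.68), SNORD102 (-0.67) and SNORD45B (-0.52) were among the lower ones, and SNORA71C (0.50) and SNORD41 (0.38) were the higher ones. Many lie within introns of host genes, and intron RNA and the mature small RNA cannot be told apart on these arrays. Of 173 microRNA genes 2 were higher and 4 were lower.

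Some called genes were neighbours on a chromosome, and 12 runs of at least 4 consecutive measured genes were called in 1 direction. The runs were found by a scan of the calls themselves. No expected number of runs was worked out, so whether 12 is many was not tested. JAG1 was in a run of 5 higher genes on chromosome 20 with ANKEF1, SNAP25, MKKS and SLX4IP (median 1.16), BMP4 in a run with FERMT2, DDHD1 and CDKN3 on chromosome 14 (0.73), and PHLDB2 in a run with ZBED2, PLCXD2 and ABHD10 on chromosome 3 (1.10). RGS2 was lower together with UCHL5, RO60 and GLRX2 on chromosome 1 (-0.37), and the histone genes H3C1, H4C1, H4C2, H3C2 and H2AC4 were lower together on chromosome 6 (-0.41). Histone genes share sequence and their probe sets may report close relatives. On chromosome 19 the zinc finger genes ZNF613, ZNF350, ZNF615 and ZNF614 were lower (-0.65). That chromosome had 7.11% of its genes lower, near the 6.54% of all genes, and 3.59% higher, against 7.70% of all genes. Over the autosomes and X the share called lay between 10.2% on chromosome 21 and 19.6% on chromosome 10.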
